A study of Mus musculus with 6 samples.

Results

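The plasminogen activator system was followed here through 5 genes in mouse oviductal epithelial (MOE) cells: the proteases Plau and Plat, the receptor Plaur, and the protease inhibitors Serpine2 and Serpinb2. The genes were chosen by their role, with earlier results of these data known. Each was found by its symbol in the deposited comparison table. Each symbol had 1 transcript cluster, the group of probes read as 1 transcript, so the 5 genes are 5 of 24253 tested. The p53 R273H group is a stable MOE line made with a plasmid that encodes the p53 R273H mutant and gave 3 arrays. The empty vector group is a stable MOE line made with pCMV-Neo and gave 3 arrays. Both lines were selected with antibiotic and isolated as clones, and both grew in medium with serum, epithelial growth factor, insulin, transferrin, selenite and estradiol. RNA came from passages in succession, so the errors below measure the spread between passages. The design holds 1 line per plasmid, so the plasmid and the line cannot be told apart. How many clones make up a line is not stated in the labels used here.

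Plasminogen is an inactive precursor that is cleaved to plasmin, a protease that dissolves fibrin and degrades matrix proteins. Urokinase (Plau) and tissue-type activator (Plat) make this cut, urokinase mostly at the cell surface, where its receptor (Plaur), a membrane-anchored protein of the Ly6/uPAR fold, holds it. Serpins stop both activators by forming a covalent complex, which is then taken up by endocytic receptors. In the oviduct and ovary the system is known for its part in tissue remodelling around ovulation.

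Promoter sequences are shown to set the receptor gene, which rose, beside the 2 dim inhibitor genes, which did not pass the test. They are from RefSeq, build GRCm38.p6, each 250 bases ending just before the transcription start and written 5′ to 3′ on the gene's strand. Of the 5 genes, 3 had an entry in the promoter table. Capitals mark the AP-1 site TGANTCA, the GC box GGGCGG, the PEA3 site AGGAAG of Ets factors and the TATA box TATAAA, searched on both strands. Some neighbouring GC boxes share 1 base. The Plaur window is chr7:24462233-24462482 on the plus strand, the Serpine2 window is chr1:79858666-79858915 on the minus strand, and the Serpinb2 window is chr1:107511173-107511422 on the plus strand, the first of 2 windows in the table for that gene.

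Plaur: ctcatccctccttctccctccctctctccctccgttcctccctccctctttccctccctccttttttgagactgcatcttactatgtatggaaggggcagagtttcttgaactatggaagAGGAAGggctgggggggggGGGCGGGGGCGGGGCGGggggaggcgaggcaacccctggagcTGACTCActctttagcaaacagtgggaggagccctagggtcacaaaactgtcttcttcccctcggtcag

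Serpine2: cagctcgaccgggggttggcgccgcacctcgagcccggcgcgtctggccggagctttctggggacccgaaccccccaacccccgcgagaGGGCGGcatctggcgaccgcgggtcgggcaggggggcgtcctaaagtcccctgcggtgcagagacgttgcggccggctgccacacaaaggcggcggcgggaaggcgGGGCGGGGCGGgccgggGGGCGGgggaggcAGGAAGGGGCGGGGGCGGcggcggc

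Serpinb2: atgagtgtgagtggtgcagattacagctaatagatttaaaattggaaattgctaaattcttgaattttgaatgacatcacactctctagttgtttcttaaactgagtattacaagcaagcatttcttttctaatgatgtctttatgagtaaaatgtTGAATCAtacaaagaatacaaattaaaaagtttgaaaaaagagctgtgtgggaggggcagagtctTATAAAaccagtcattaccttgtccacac

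The 3 windows differed in composition. The G and C content was 59.6% for Plaur, 78.8% for Serpine2 and 32.4% for Serpinb2, against a median of 52.4% over 32851 promoter windows. The Plaur window held 1 AP-1 site, which began 69 bases before the start, with 3 GC boxes and 1 PEA3 site upstream of it. The Serpine2 window held 6 GC boxes and 1 PEA3 site. The Serpinb2 window held 1 AP-1 site, 94 bases before the start, and 1 TATA box, 29 bases before it. Of all windows, 6.75% held the AP-1 site, 32.7% the GC box, 29.5% the PEA3 site and 12.4% the TATA box. The Snail E-box CAGGTG, the NF-kB site and the p53 half-site had no match in these 3 windows and were present in 17.2%, 3.9% and 7.13% of all windows. These matches describe letters only, and no binding was measured.

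Signal is given on the log2 scale as deposited, where 1 unit is a 2-fold step. Replicate arrays of a group correlated at 0.991 to 0.993 across genes, arrays of different groups at 0.964 to 0.966, and the typical (median) SD of a gene among replicates was 0.155. The oviductal label was checked against 9 markers, of which 1 rose, 4 fell and 4 did not pass. That is 55.6% passing, against 23.6% of all genes and 36.4% of genes with a group mean over the median of transcript clusters. Pax8, a transcription factor of oviductal secretory cells, lay between 10.44 and 10.51 in p53 R273H arrays and between 10.14 and 10.25 in empty vector arrays. The keratin Krt18 lay between 11.19 and 11.41 in p53 R273H arrays and between 10.97 and 11.07 in empty vector arrays. Neither gene passed the test between lines (limma adjusted p = 0.0598 for Pax8 and 0.112 for Krt18). Other keratins of the list changed in both directions. Krt7 had means of 9.78 in p53 R273H and 7.98 in empty vector, Krt8 had 9.24 in p53 R273H and 10.42 in empty vector, and Krt19 had 6.31 in p53 R273H and 8.82 in empty vector. Epcam, an epithelial surface marker, stayed on all 6 arrays below 4.53, the median over the transcript clusters. Ovgp1, the oviductal glycoprotein, had means of 4.93 in p53 R273H and 6.21 in empty vector. The files do not say which signals exceed background, so 4.53 is used below as a mark of dim signal only.

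Both activators and the urokinase receptor were higher in the p53 R273H line. Neither of the 2 inhibitors, both under 4.53 on every array, passed the test. Plat rose 2.49-fold, Plaur 1.62-fold and Plau 1.31-fold. In all, 3 of 5 genes passed the limma test at an adjusted p under 0.05, all 3 upward. Of all 24253 genes 23.6% passed, 11.9% upward and 11.7% downward. The 3 genes that passed are bright ones, and 18.2% of the 14681 genes with a group mean over 4.53 rose. For 4 of the 5 genes no array of one line fell within the range of the other, and the same held for 38.1% of all genes. An exact two-sided permutation test of each gene cannot go below p = 0.1 with 3 arrays against 3. It gave 0.1 for Plat, Plaur, Plau and Serpinb2 and 0.7 for Serpine2.

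Plat (transcript cluster 17499962, chromosome 8) encodes tissue-type plasminogen activator, the activator that works best when bound to fibrin. Its signal was 11.63, 11.64 and 11.71 in p53 R273H arrays, against 10.38, 10.36 and 10.28 in empty vector arrays. The lowest p53 R273H array stood more than a full log2 unit above the highest empty vector array. The group means were 11.66 ± 0.04 and 10.34 ± 0.06 for p53 R273H and empty vector (SD, n = 3 each). The log2 difference was 1.32 ± 0.09 (SE, limma adjusted p = 3.3e-05), with a 95% interval of the fold from 2.16 to 2.87. Only 1.28% of all tested genes had a larger rise.

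Plaur (transcript cluster 17474974, chromosome 7) encodes the urokinase receptor. Its signal was 10.25, 10.18 and 10.17 in p53 R273H arrays, against 9.49, 9.53 and 9.48 in empty vector arrays. All p53 R273H arrays were above all empty vector arrays. The means were 10.20 ± 0.04 in p53 R273H and 9.50 ± 0.03 in empty vector (SD, n = 3 each). The log2 difference was 0.70 ± 0.09 (SE, limma adjusted p = 0.000752), and the fold lay between 1.41 and 1.86 in its 95% interval. A larger rise was seen in 5.03% of genes.

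Plau (transcript cluster 17297537, chromosome 14) encodes urokinase, the activator that Plaur binds. Its signal was 10.40, 10.45 and 10.45 in p53 R273H arrays, against 10.06, 10.05 and 10.02 in empty vector arrays. The groups again did not overlap, and their spread was small. The means were 10.43 ± 0.03 in p53 R273H and 10.04 ± 0.02 in empty vector (SD, n = 3 each). The log2 difference was 0.39 ± 0.08 (SE, limma adjusted p = 0.0118), with a fold between 1.15 and 1.5. The 95% interval of the log2 difference of Plat, 1.11 to 1.52, lay above those of Plaur, 0.50 to 0.90, and Plau, 0.20 to 0.59, which overlapped each other. These intervals set differences, not levels, side by side, and the difference between genes was not tested.

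**Figure D1:**
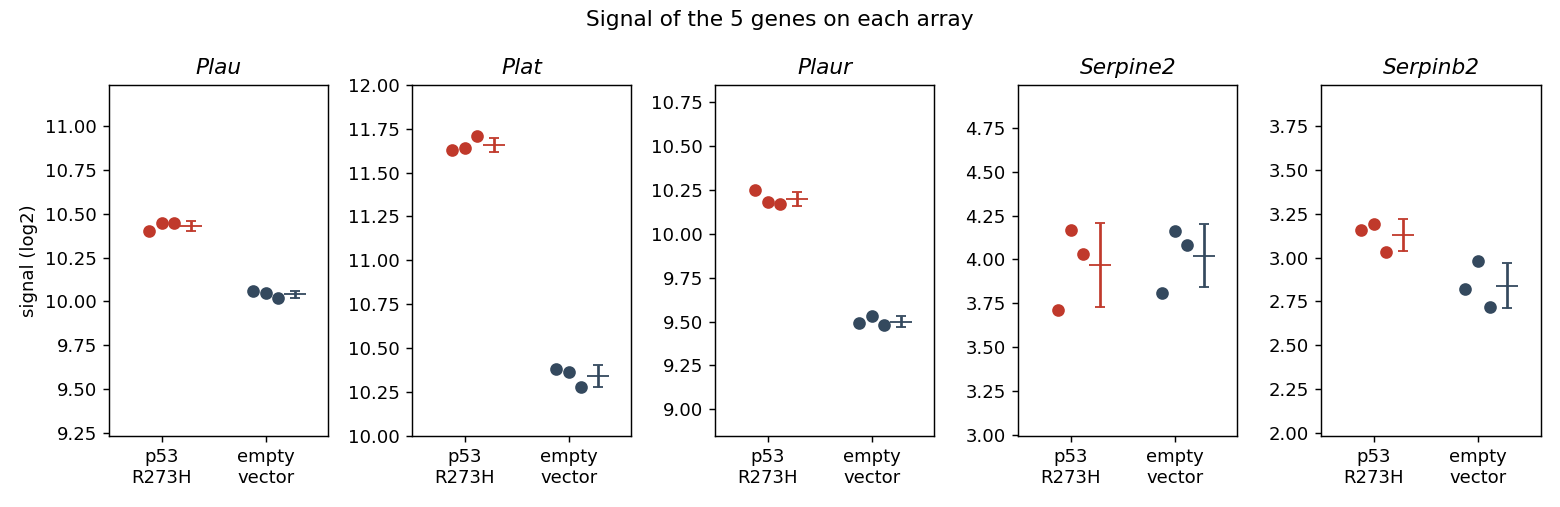
Signal of Plau, Plat, Plaur, Serpine2 and Serpinb2 (log2, vertical axis, spanning 2 units in every panel) on each array of the p53 R273H line (red) and the empty vector line (dark blue), with the group mean and SD beside the points. Plat shows the widest gap between groups, 11.66 against 10.34, and the points of Serpine2 overlap.

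Serpine2 (transcript cluster 17224771, chromosome 1) encodes protease nexin-1, a secreted serpin that inhibits thrombin, urokinase, tissue-type activator and plasmin. Its signal was 3.71, 4.17 and 4.03 in p53 R273H arrays, against 3.81, 4.16 and 4.08 in empty vector arrays. The groups overlapped, and every value was under 4.53. The means were 3.97 ± 0.24 in p53 R273H and 4.02 ± 0.18 in empty vector (SD, n = 3 each). The log2 difference was -0.05 ± 0.15 (SE, limma adjusted p = 0.873). Its 95% interval allows a fold between 0.761 and 1.23, which holds for the signal of this dim probe group.

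Serpinb2 (transcript cluster 17216458, chromosome 1) encodes plasminogen activator inhibitor 2, which inhibits urokinase and is mostly kept inside the cell. Its signal was 3.16, 3.19 and 3.03 in p53 R273H arrays, against 2.82, 2.98 and 2.72 in empty vector arrays. The p53 R273H arrays were all above the empty vector arrays, by a gap smaller than the spread within the empty vector group. The means were 3.13 ± 0.09 in p53 R273H and 2.84 ± 0.13 in empty vector (SD, n = 3 each). The log2 difference was 0.28 ± 0.11 (SE) and did not pass after adjustment (limma adjusted p = 0.0989, unadjusted p = 0.0291). The fold lay between 1.03 and 1.45 in its 95% interval, on signals that were all under 4.53.

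The authors' deposited table gives step-up p-values for the same transcript clusters. They are 0.00106 for Plat, 0.00180 for Plaur, 0.00291 for Plau, 0.163 for Serpinb2 and 0.920 for Serpine2 in the authors' deposited table, on the same sides of 0.05 as limma.

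Genes that act with these 5 were taken from 10 lists by role, with 89 measured genes. Of these, 21 rose, 13 fell and 55 did not pass. That is 23.6% risen and 14.6% fallen, against 11.9% and 11.7% of all genes. A group mean over 4.53 was found for 56 of the 89, and all 21 risen and 13 fallen genes were among them. Of all 14681 genes with such a mean, 18.2% rose and 18.2% fell. The lists were chosen with earlier results of these data known, so their shares do not test the pathway. The median log2 difference was 0.39 over the 5 genes, 0.06 over the listed genes and 0.02 over all genes.

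**Figure D2:**
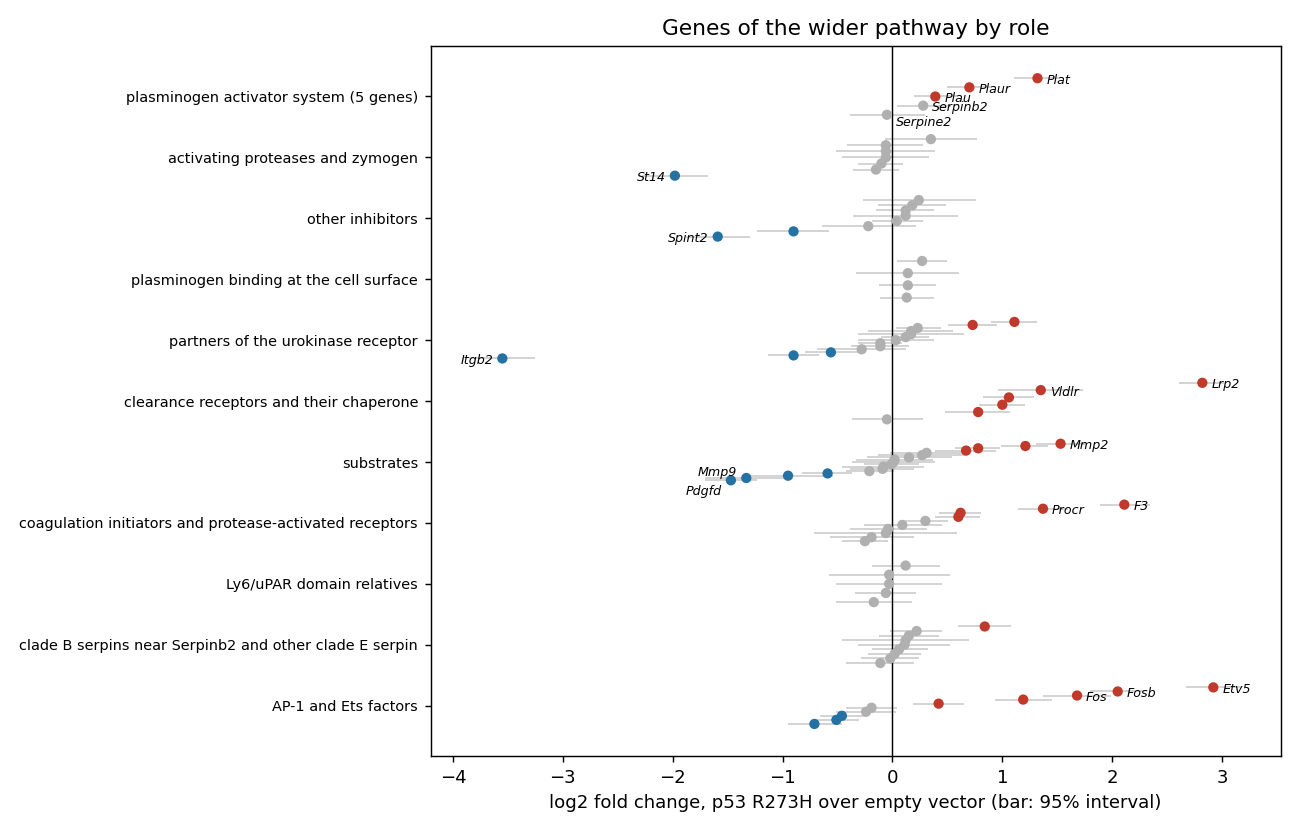
Log2 fold change of p53 R273H over empty vector (horizontal axis, points, with 95% intervals) for the 5 genes and for each gene of the 10 lists by role (rows). Red points rose, blue points fell and grey points did not pass at an adjusted p of 0.05. In the list of clearance receptors and their chaperone 5 of 6 points are red, and in the list of plasminogen binding at the cell surface none of the 4 points is coloured.

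Among 8 further inhibitors described here, Spint2 and Cpb2 fell and 6 did not pass. Spint2, a membrane-bound inhibitor of matriptase and of the activator of hepatocyte growth factor, fell by 1.59 ± 0.13 (SE), with means of 7.75 in p53 R273H and 9.34 in empty vector. Cpb2, a carboxypeptidase that protects fibrin from plasmin, fell by 0.90 ± 0.14 on the log2 scale, with a mean under 4.53 in the p53 R273H line.

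The substrate of both activators was dim. Plasminogen (Plg) had means of 4.18 in p53 R273H and 4.25 in empty vector, and its log2 difference of -0.06 ± 0.17 (SE) did not pass the limma test (adjusted p = 0.843). Plasminogen is known as a liver product that reaches other tissues through the blood. Of the 7 genes for zymogen and activating proteases, 1 changed. St14, the membrane protease matriptase, which cleaves the urokinase precursor, fell by 1.98 ± 0.13 (SE) on the log2 scale. Its signal was 5.11, 5.07 and 4.75 in p53 R273H arrays, against 6.96, 7.09 and 6.83 in empty vector arrays. Cathepsin B (Ctsb), another protease that cleaves that precursor, had means of 11.01 in p53 R273H and 11.11 in empty vector and did not pass (adjusted p = 0.472, limma).

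Genes of plasminogen binding at the cell surface held 0 of 4 calls by limma, and 1 had an unadjusted p under 0.05. Anxa2, which with S100a10 forms a docking complex for plasminogen and tissue-type activator, had means of 10.87 in p53 R273H and 10.60 in empty vector (adjusted p = 0.0965). S100a10 had means of 9.58 in p53 R273H and 9.45 in empty vector (adjusted p = 0.438).

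Of 5 clearance receptors, which take up complexes of activator and inhibitor or, for Igf2r, bind Plaur and plasminogen, 4 rose. The chaperone Lrpap1 rose too. Of these 6 genes none fell, and the sorting receptor Sorl1, whose mean was under 4.53 in both groups, did not pass. The median log2 difference of the 6 genes was 1.03. Lrp2, megalin, a large endocytic receptor, had 8.97, 8.91 and 8.95 in p53 R273H arrays, against 6.10, 6.07 and 6.20 in empty vector arrays, a fold of 7.05 (limma adjusted p = 8.64e-07). Vldlr, the very low density lipoprotein receptor, had 7.62, 8.07 and 7.80 in p53 R273H arrays, against 6.77, 6.42 and 6.27 in empty vector arrays. Lrp1, the receptor best known for clearing these complexes, rose by 1.00 ± 0.09 (SE) on the log2 scale, with means of 6.37 in p53 R273H and 5.37 in empty vector. Lrpap1, which helps these receptors fold and lies on chromosome 5, rose by 1.06 ± 0.10. On chromosome 5 the 836 genes with a group mean over 4.53 had a median log2 difference of 0.47. Igf2r, which binds Plaur and plasminogen, rose by 0.78 ± 0.13.

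**Figure D3:**
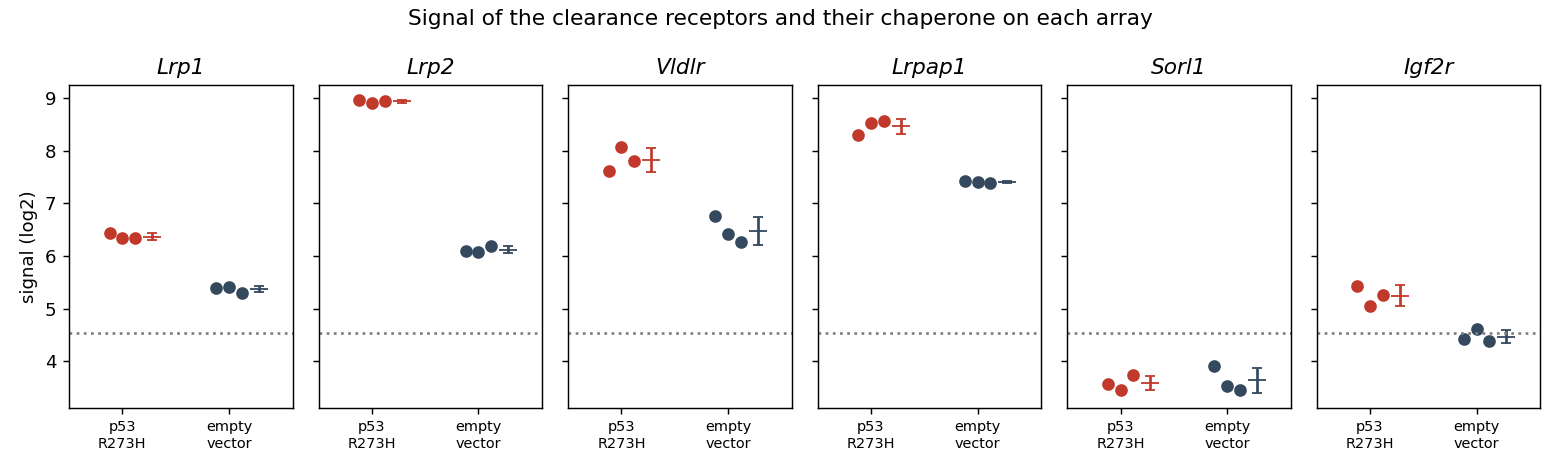
Signal (log2, vertical axis) of 5 clearance receptors and their chaperone Lrpap1 on each array of the p53 R273H line (red) and the empty vector line (dark blue), with group mean and SD. The dotted line is 4.53, the median of all transcript clusters. Lrp2 shows the widest gap, 8.94 against 6.12, and Sorl1 stays under the line.

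Of 13 partners of the urokinase receptor 2 rose, 3 fell and 8 did not pass. Among integrins, Itgav, a chain of vitronectin receptors, had means of 10.49 in p53 R273H and 9.38 in empty vector, a rise of 1.11 ± 0.09 (SE) on the log2 scale. Itga5, a chain of the fibronectin receptor, rose by 0.73 ± 0.10. Itgb2, the leukocyte integrin beta chain, fell by 3.55 ± 0.13, with means of 5.35 in p53 R273H and 8.90 in empty vector, and its partner Itgam was under 4.53 on all arrays. Itgb3, a partner chain of Itgav, fell by 0.90 ± 0.10. Egfr, the epidermal growth factor receptor, fell by 0.56 ± 0.11. The collagen receptor Mrc2, which joins Plaur at the cell surface, had a log2 difference of 0.17 ± 0.21 and did not pass (limma adjusted p = 0.644).

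Of 17 substrates and factors released or cleaved by plasmin or the activators, 4 rose and 4 fell. Mmp2, gelatinase A, had means of 10.42 in p53 R273H and 8.89 in empty vector, and Mmp9, gelatinase B, had 4.56 in p53 R273H and 5.88 in empty vector. Fibronectin (Fn1) rose by 0.78 ± 0.09 (SE) on the log2 scale, thrombospondin 1 (Thbs1) by 1.21 ± 0.09 and Tgfb1, made as a latent growth factor, by 0.67 ± 0.12. Pdgfd, a growth factor that urokinase cleaves, fell by 1.47 ± 0.10, and Pdgfc, which tissue-type activator cleaves, fell by 0.95 ± 0.17. Mst1, the precursor of macrophage-stimulating protein, fell by 0.59 ± 0.10. The fibrinogen chains Fga, Fgb and Fgg were under 4.53 in both groups and did not pass.

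Of 10 genes for coagulation initiators, coagulation regulators and protease-activated receptors 4 rose and 0 fell. F3, tissue factor, which starts clotting, had 11.13, 11.07 and 11.18 in p53 R273H arrays, against 8.96, 8.95 and 9.14 in empty vector arrays, a fold of 4.32 (limma adjusted p = 5.12e-06). Its inhibitor Tfpi rose by 0.60 ± 0.09 (SE) on the log2 scale, and Procr, the protein C receptor, rose by 1.37 ± 0.10. F2rl1, a receptor cleaved by trypsin-like proteases, rose by 0.62 ± 0.09, and the thrombin receptor F2r differed by -0.25 ± 0.09 without passing (adjusted p = 0.0845, limma).

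AP-1 and Ets proteins are known to bind the enhancer of the urokinase gene and promoters of its receptor. Of 10 measured genes 5 rose and 3 fell. Etv5 rose by 2.92 ± 0.11 (SE) on the log2 scale, Fosb by 2.05 ± 0.11, Fos by 1.68 ± 0.13 and Etv4 by 1.19 ± 0.11. Jun rose by 0.42 ± 0.10, while Junb fell by 0.71 ± 0.10, Jund fell by 0.51 ± 0.09 and Ets2 fell by 0.46 ± 0.09. Their signals lay above 4.53 in both groups.

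Relatives of the members by sequence gave few calls. Of 5 genes with the Ly6/uPAR fold none passed by limma, and 0 had an unadjusted p under 0.05. Of 9 other serpins, 1 of clade E and 8 of clade B from the cluster that holds Serpinb2, Serpinb8 rose and 8 did not pass. Serpinb8, an inhibitor of furin-type proteases, had means of 6.67 in p53 R273H and 5.83 in empty vector, and it was the single serpin of this list with a mean over 4.53.

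The position of each gene was described through the 5 nearest measured genes on either side in the RefSeq order. Plau rose among neighbours of which none did. Of the 10 genes around Plau 4 fell, 0 rose and 6 did not pass, with a median log2 difference of -0.40. Sec24c fell by 0.62 ± 0.10 (SE), Adk fell by 0.61 ± 0.09, Ap3m1 fell by 0.43 ± 0.10 and 6230400D17Rik fell by 0.92 ± 0.09. On chromosome 14 as a whole, 435 genes with a group mean over 4.53 had a median of -0.26, and 6.9% of them rose. Around Plat 1 of 10 rose and 1 fell, with a median of -0.08. Around Plaur 1 rose, the potassium channel Kcnn4 by 1.19 ± 0.09, and 2 fell, with a median of -0.09. Around Serpine2 1 rose and 1 fell, and around Serpinb2 2 rose, among them Serpinb8.

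**Figure D4:**
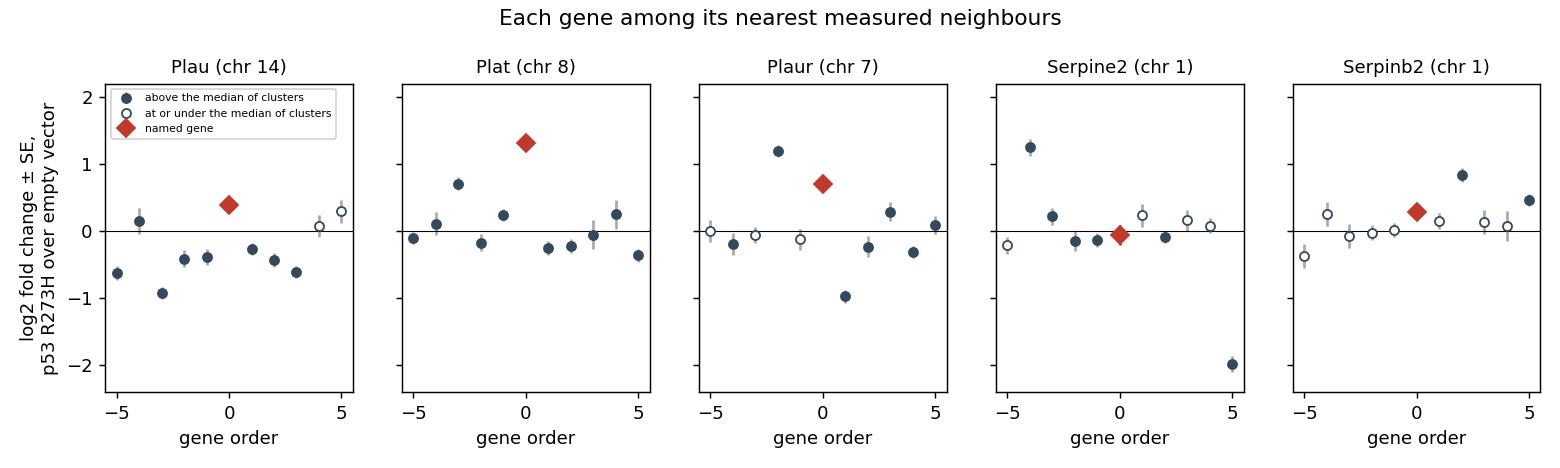
Log2 fold change with SE (vertical axis) of p53 R273H over empty vector for each of the 5 genes (red diamond) and its 10 nearest measured genes in chromosomal order (horizontal axis). Filled points have a group mean over 4.53 and open points do not. The diamond of Plau, at 0.39, lies above all 10 neighbours, whose median is -0.40.

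Profiles most like those of the members were found by the Euclidean distance of log2 values over 6 arrays, each gene centred on its mean, among 12117 genes. With 2 groups this measure mostly picks genes with the same group difference. For Plat they were Klhl5, Fam177a and Twsg1, at distances of 0.10, 0.13 and 0.14. For Plaur they were Chfr, Dtna and Coq5, at 0.06, 0.07 and 0.07. For Plau they were Mcts2, Dnajb11 and Slc10a7, at 0.03, 0.04 and 0.04. For the dim Serpine2 they were Myeov2, Nos1ap and Lrp3, at 0.07, 0.09 and 0.12, and for Serpinb2 they were Frmd8, Zfp710 and Ncf1, at 0.08, 0.09 and 0.11.

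Plat is known in endothelial cells and Plaur in leukocytes, so markers of these cells, and of fibroblasts and smooth muscle, were measured too. Both groups are MOE lines grown in culture and isolated as clones, not pieces of tissue. In bulk RNA, fewer cells of a type and less RNA per cell cannot be told apart. Of 8 endothelial markers 1 rose and 1 fell, and their summed log2 signal ran from 34.6 to 36.4 in p53 R273H arrays and from 33.7 to 34.1 in empty vector arrays. Kdr, a receptor of vascular endothelial growth factor that lies on chromosome 5, rose by 1.76 ± 0.10 (SE) on the log2 scale. The means of Kdr were 6.29 in p53 R273H and 4.53 in empty vector, and the higher endothelial sum rests on this gene. Tie1 fell by 0.35 ± 0.10 while under 4.53 on all 6 arrays. The endothelial adhesion molecule Pecam1 had means of 4.67 in p53 R273H and 4.68 in empty vector. Of 8 leukocyte and macrophage markers 1 rose and 1 fell, with sums from 37.1 to 37.4 in p53 R273H arrays and from 36.5 to 37.5 in empty vector arrays. Ptprc, the common leukocyte antigen, rose by 0.60 ± 0.13 on the log2 scale while under 4.53 on all 6 arrays. Cd68, a lysosomal protein abundant in macrophages, fell, with means of 7.32 in p53 R273H and 8.05 in empty vector. Csf1r, a macrophage growth factor receptor, had means of 6.23 in p53 R273H and 5.91 in empty vector and did not pass (limma adjusted p = 0.0507). Of 8 fibroblast markers 3 rose and 1 fell, with sums from 39.7 to 40.8 in p53 R273H arrays and from 33.3 to 35.3 in empty vector arrays. Decorin (Dcn), a matrix proteoglycan, had the widest gap of the 8, with means of 8.02 in p53 R273H and 3.32 in empty vector. Its log2 difference of 4.70 ± 0.10 makes up most of the gap between the sums. Pdgfra, which like Kdr lies on chromosome 5, rose by 1.11 ± 0.20 and Col1a1 by 0.72 ± 0.14, while Col1a2 fell by 1.04 ± 0.14. Of the 836 chromosome 5 genes with a group mean over 4.53, 57.4% rose, and their median log2 difference was 0.47. Pdgfrb, Lum, Thy1 and Fap did not pass. Of 5 smooth muscle markers 2 rose and 1 fell, with sums from 32.7 to 33.4 in p53 R273H arrays and from 31.4 to 31.6 in empty vector arrays. Acta2 rose by 1.82 ± 0.10 and Tagln by 0.60 ± 0.14, Cnn1 fell by 0.86 ± 0.11, and Myh11 and Des did not pass. The share of markers that passed was 25% for endothelial and for leukocyte and macrophage markers, 50% for fibroblast and 60% for smooth muscle markers. Among all genes 23.6% passed, and among those with a group mean over 4.53 it was 36.4%. The files mark no signal as absent. The part of these markers in the results on the plasminogen activators was not tested.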

How the data were processed

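Per the labels, total RNA was labelled with biotin and hybridized to 6 arrays. The values that the authors deposited are log2 signals of 41345 transcript clusters. No label or header used here states the array model, background correction or normalization. The log2 scale was read from the values: log2 of the ratio (the fold of mutant over control) in the authors' deposited table matched the difference of group means within 6.64e-05. That table also holds p-values, a signed fold (a score) and model statistics (scores), per the file headers.

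Symbols came from the deposited table. Of 25 symbols turned into dates, 20 were restored through RefSeq accessions. Rows without a symbol and 826 rows naming several genes were left out, and the brightest transcript cluster of a gene was used, which left 24253 genes. The test between groups was limma's moderated linear model (version 3.58.1, R 4.3.3; two-sided, no covariates, no filter), with Benjamini-Hochberg adjustment across all genes. The procedure was tested on simulated data. The files name no genome build, so no position is given for transcript clusters or genes of the array. The RefSeq tables (GRCm38.p6) served for names, chromosomes and gene order, and for the 3 promoter windows, which carry RefSeq's own coordinates.

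The 5 genes and the lists by role were chosen with earlier results of these data known. The text may name any listed gene, the 3 nearest profiles of each of the 5 genes and their 5 neighbours on either side. Of 90 listed pathway genes, Fosl1 was not matched. Some genes of the pathway are not reported here and are left out of the list counts. Plgrkt, Pinlyp and the macrophage marker Adgre1 were read under older symbols. The number of arrays limits the precision. Alternatives were another normalization, filters on dim genes, the mean over transcript clusters, other variance models, the replicate number as a block and leaving out each array.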

Additional observations from a re-analysis of the deposited data

How the results depend on the processing

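Under 14 alternatives the calls of Plat, Plaur and Plau kept their direction and stayed past the threshold. The log2 difference ranged from 1.29 to 1.36 for Plat, from 0.67 to 0.74 for Plaur and from 0.38 to 0.43 for Plau. The largest adjusted p for Plat was 0.000691, from the t-test without moderation of the variance. For Plaur and Plau it was 0.00592 and 0.0457, from limma with the replicate number as a block. Serpinb2 (0.22 to 0.36, adjusted p from 0.0692 to 0.266) and Serpine2 (-0.15 to 0.08, adjusted p from 0.584 to 0.978) passed in none of the 12 alternatives that kept them. Filters at the 30th and 50th percentile removed both as dim. The count of listed pathway genes past the threshold was 34 and ranged from 33 to 38, and that of all genes was 5717 and ranged from 4420 to 6845. Leaving out 1 array at a time gave 4420 to 4869 genes. Same-numbered arrays of the 2 groups did not deviate together across genes (r of -0.0696, 0.0116 and 0.00222 over 24253 genes). The labels do not say whether equal numbers mark arrays handled together, and these correlations cannot decide it. With the replicate number as a block, 4826 genes passed, and the log2 differences were 1.32 for Plat (adjusted p = 0.000594), 0.70 for Plaur (0.00592) and 0.39 for Plau (0.0457). Dim signal limits Serpine2, Serpinb2, Plg and the fibrinogen genes, for which a change could be missed.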
